A study of Mus musculus with 36 samples.

Results

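The proteasome genes were read here as every row of the table whose gene symbol follows the Psma to Psmg naming pattern, and 48 of 11337 genes matched. Of these, 47 encode subunits, activators, an inhibitor or assembly factors of the proteasome. The other, Psmc3ip, encodes a protein of meiotic recombination that only shares the name pattern, and it was kept apart from the counts of the 47 members. The 26S proteasome is the protease that degrades proteins tagged with ubiquitin. Its core is a barrel of alpha rings, which gate the entrance, around beta rings, of which the Psmb5, Psmb6 and Psmb7 products cut peptides. A regulatory cap of ATPases and non-ATPase subunits recognises, unfolds and feeds in the substrates. Interferons induce Psmb8, Psmb9 and Psmb10, which take the place of the cutting subunits in the immunoproteasome, and in mice muscle stem cells need proteasome activity to remain viable during quiescence.

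Expression was measured by polyA RNA sequencing of muscle stem cells (MuSCs, which lie along muscle fibres and repair them) from male mice of a C57BL6 background, with 1 mouse per library and 36 libraries. In the wheel cohort, mice of 18 months (O) or 3 months (Y) lived for 3 weeks with a wheel that turned freely (+Ex) or was locked (-Ex), and cells were sorted as CD31-, CD45-, Sca1- and VCAM+. It held 5 O(+Ex), 7 O(-Ex), 3 Y(+Ex) and 6 Y(-Ex) libraries, all with intact Ccnd1. In the Ccnd1 cohort every mouse, controls included, carried Pax7_CreERT2, a tamoxifen-inducible Cre driven from the stem cell gene Pax7, and the R26R_YFP reporter, and received tamoxifen. YFP-positive cells were sorted 6 weeks later, and this cohort had no running mice. It held 3 O(WT) libraries at 18 months and, at 3 months, 5 Y(KO) libraries with 2 floxed Ccnd1 alleles, 4 Y(HET) libraries with 1 and 3 Y(WT) libraries with none. Ccnd1 encodes cyclin D1, a driver of cell cycle entry.

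The deposited values are RPKM, which scale reads by gene length and library size, adjusted across libraries before deposit, so that no library's read depth can be recovered. The targeted gene followed the labels, since Ccnd1 averaged 2.71 ± 0.495 RPKM in Y(KO) and 7.18 ± 0.723 RPKM in Y(HET), against 11.7 ± 1.4 RPKM in Y(WT) libraries (SD, n = 5, 4 and 3). Of 14 MuSC markers all 14 were in the table, with a summed level of 2260 to 3525 RPKM over the libraries, and Pax7 was 14.2 RPKM or more in each. Centred log2 values had a rank of 29 rather than 35, so directions of variation had been removed from them. Between Y(WT) and Y(-Ex), limma gave 0 of 11337 genes an unadjusted p under 0.05 where 567 are expected by chance, and likewise 0 between O(WT) and O(-Ex). The age comparisons of the cohorts are therefore not independent, and p-values of all comparisons rest on adjusted values. All 7 keratinocyte markers of 9 listed that the table holds were called higher in Y(HET), where their sum was 74.3 to 192 RPKM, against 4.22 to 6.46 RPKM in Y(WT). In bulk libraries fewer cells of a type and less RNA per cell cannot be told apart.

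The sequences upstream of the starts of members that the comparisons below turn on are shown first. They are the constitutive cutting subunits Psmb5 and Psmb6, their interferon-inducible counterparts Psmb8 and Psmb9, and Psma7, an alpha subunit and 1 of 4 members called in 3 of the 8 comparisons. Each line holds the 250 bases before the RefSeq start (GRCm38.p6), 5′ to 3′, and capitals mark matches on either strand to 3 motifs: TGACNNNGC (the antioxidant response element, bound by the proteasome gene activators Nfe2l1 and Nfe2l2), the interferon-stimulated response element and CCAAT.
Psmb8, chr17:34197945-34198194, plus strand: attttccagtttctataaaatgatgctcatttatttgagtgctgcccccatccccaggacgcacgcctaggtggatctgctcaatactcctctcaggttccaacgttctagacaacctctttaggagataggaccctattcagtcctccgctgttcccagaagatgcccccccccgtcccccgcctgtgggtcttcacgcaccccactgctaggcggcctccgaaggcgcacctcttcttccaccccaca
Psmb5, chr14:54617996-54618245, minus strand: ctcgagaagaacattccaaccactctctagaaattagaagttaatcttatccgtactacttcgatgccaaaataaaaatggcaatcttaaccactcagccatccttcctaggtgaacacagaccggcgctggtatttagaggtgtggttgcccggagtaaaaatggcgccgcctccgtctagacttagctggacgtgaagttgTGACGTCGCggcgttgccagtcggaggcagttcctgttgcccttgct
Psmb9, chr17:34187331-34187580, minus strand: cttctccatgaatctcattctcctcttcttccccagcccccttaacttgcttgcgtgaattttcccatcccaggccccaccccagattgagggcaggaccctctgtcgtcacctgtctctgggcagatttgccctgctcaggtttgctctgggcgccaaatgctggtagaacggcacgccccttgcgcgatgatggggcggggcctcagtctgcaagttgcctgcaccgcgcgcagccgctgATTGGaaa
Psmb6, chr11:70525107-70525356, plus strand: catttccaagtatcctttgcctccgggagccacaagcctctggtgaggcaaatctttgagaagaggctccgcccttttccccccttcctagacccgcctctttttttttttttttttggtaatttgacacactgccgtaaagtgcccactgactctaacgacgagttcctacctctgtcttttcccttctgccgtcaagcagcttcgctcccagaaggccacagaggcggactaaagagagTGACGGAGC
Psma7, chr2:180042465-180042714, minus strand: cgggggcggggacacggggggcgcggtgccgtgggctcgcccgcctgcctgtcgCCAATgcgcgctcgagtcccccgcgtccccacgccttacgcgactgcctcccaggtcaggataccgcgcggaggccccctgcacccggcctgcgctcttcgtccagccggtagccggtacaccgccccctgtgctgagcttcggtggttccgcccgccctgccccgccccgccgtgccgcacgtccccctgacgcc
The Psmb5 and Psmb6 windows each hold an antioxidant response element, TGACGTCGC and TGACGGAGC, which end 38 and 0 bases before the start. The Psmb8 window holds no match to the 3 motifs. Psmb9 holds a reversed CCAAT 3 bases before its start, and Psma7 a CCAAT 191 bases before it. The Psmb8 and Psmb9 windows lie wholly within the GENCODE spans of these genes given below, which begin upstream of the RefSeq starts, and 27 bases of the Psmb5 window lie within its span. Upstream windows were found for 40 of the 47 members. The antioxidant response element was in 5 of these 40, or 12.5%, against 11.5% of 27025 genes with a window, and CCAAT was in 13, or 32.5%, against 37.5%. The interferon-stimulated response element was in 3 members (Psmb3, Psmd4 and Psmd9), or 7.5%, against 3.46%.

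The proteasome genes were abundant and steady between mice. Their median level was 40.5 RPKM against 6.12 RPKM over all genes, and their SD of log2 RPKM within a group had a median of 0.13, against 0.18 over genes that averaged 5 RPKM or more. Among alpha subunits Psma3 had the highest mean, 99.3 RPKM, and Psma2 the lowest, 25.7 RPKM. In the beta ring the extremes were Psmb1 at 132 RPKM and Psmb7 at 14.2 RPKM. All 3 immunoproteasome subunits were below Psmb7, with means of 13.1 RPKM for Psmb10, 9.70 RPKM for Psmb8 and 2.49 RPKM for Psmb9. The ATPases ran down to 22.96 RPKM for Psmc2 from 136.1 RPKM for Psmc6, the highest mean of all members. Non-ATPase subunits lay between 18.8 RPKM for Psmd13 and 86.3 RPKM for Psmd7. Assembly factors were scarce, from 2.61 RPKM for Psmg3 to 21.3 RPKM for Psmg2. The activators lay between 3.73 RPKM for the inhibitor Psmf1 and 49.4 RPKM for Psme2. Within groups Psma7 varied least of all members (SD of log2 RPKM 0.075) and Psmb9 most (0.309). Psme2b is a near-identical copy of Psme2, so reads may be split between them. In 15 of the 48 rows exons overlap another annotated gene, Psmb8, Psmb9, Psmb5, Psmb7, Psma4, Psma5, Psmd3, Psmd9 and Psmg3 among them. Psmb9 overlaps the gene Tap1 and Psmb7 the gene Nek6, each on the opposite strand. Whether counting used strand is not stated in the sources used here, so reads of such neighbours may be included.

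**Figure D1:**
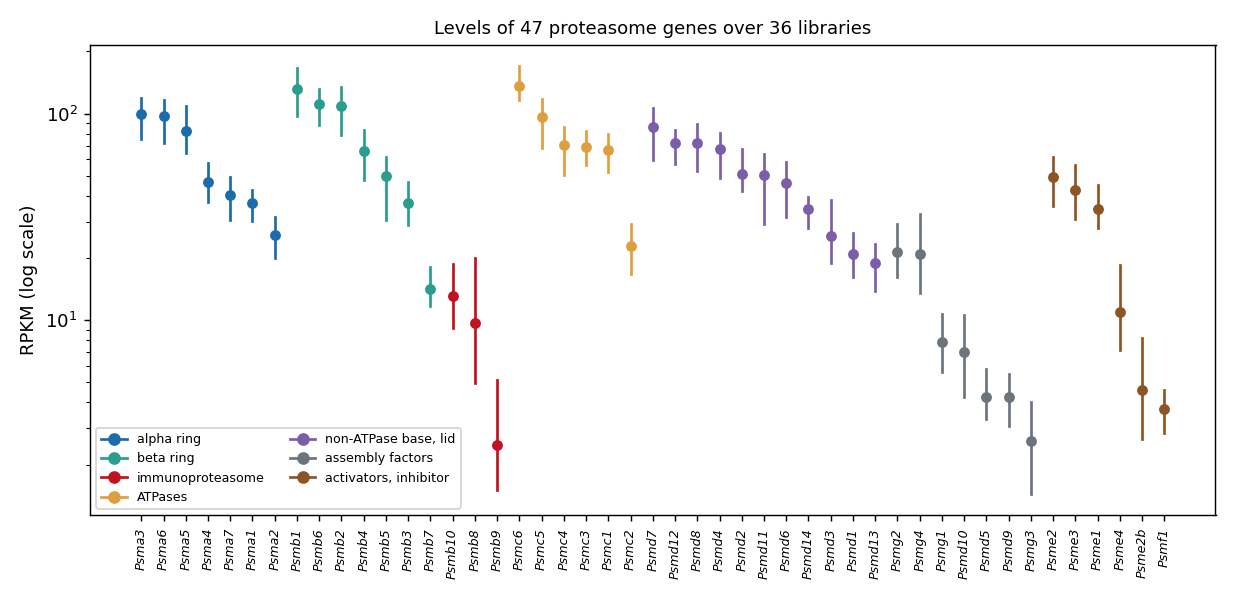
Mean RPKM (points, log axis) of each of the 47 proteasome genes over the 36 libraries, with lines from the lowest to the highest library and colours for the role in the proteasome. Subunits of the core and cap lie mostly above 20 RPKM, and immunoproteasome subunits and most assembly factors below that.

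The first question of the design was age. In mice with locked wheels, 20 of the 47 members rose in O(-Ex) relative to Y(-Ex) and 1 fell (limma, adjusted p under 0.05), or 42.6% higher and 2.13% lower, where 20.5% of all 11337 genes were called higher and 17.8% lower. The median log2 change was 0.21 over the members and 0.01 over all genes, and 39 of 47 members lay above 0, or 83.0%, against 50.8% of all genes. The summed level of the members was 2330 ± 114 RPKM in O(-Ex) and 2048 ± 120 RPKM in Y(-Ex) libraries (SD, n = 7 and 6). Core subunits, immunoproteasome subunits and ATPases supplied most of the calls, and the 11 non-ATPase subunits 1. Groups did not overlap for 8 members, or 17.0%, all higher in O(-Ex), where this held for 6.96% of genes.

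In the alpha ring 4 of 7 genes rose, with a median log2 change of 0.21. Psma7 (ENSMUSG00000027566, mm10 chromosome 2, 180036374 to 180042433, minus strand) encodes the alpha4 subunit. Its lowest, median and highest level was 43.6, 45.1 and 49.3 RPKM in O(-Ex), against 31, 34.6 and 37.6 RPKM in Y(-Ex) libraries. Every O(-Ex) library lay above every Y(-Ex) library, and the log2 change, given here and below with its SE, was 0.42 ± 0.05, adjusted p = 3.91e-06. Psma3 rose by 0.26 ± 0.06 and Psma5 by 0.25 ± 0.08 on the log2 scale. Psma2 was called at 0.21 ± 0.08, adjusted p = 0.046, and this call was lost in 10 of 13 fits that each left out 1 library, all except those without O(-Ex) replicate 3, O(-Ex) replicate 5 and Y(-Ex) replicate 4 (adjusted p 0.00273 to 0.124).

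In the beta ring 5 of 7 genes rose, with a median of 0.26. Psmb4, a structural subunit, was 62.5, 75.6 and 83.2 RPKM in O(-Ex), against 53.6, 57.2 and 62.5 RPKM in Y(-Ex) libraries (lowest, median and highest), a log2 change of 0.38 ± 0.06, adjusted p = 8.78e-05. The groups touched without overlapping, at 62.52 RPKM for the lowest O(-Ex) and 62.51 RPKM for the highest Y(-Ex) library. Psmb2 rose by 0.33 ± 0.06 and Psmb1 by 0.26 ± 0.06, again without overlap of the groups. Of the 3 cutting subunits, Psmb6 (caspase-like activity) rose by 0.22 ± 0.06, adjusted p = 0.00666. Psmb5, which carries the chymotrypsin-like activity, was 42.3, 47.6 and 53.7 RPKM in O(-Ex), against 44.8, 51 and 55.4 RPKM in Y(-Ex) libraries, and the groups overlapped (log2 change -0.03 ± 0.07, adjusted p = 0.718). Psmb7, the trypsin-like subunit, did not pass the test either (0.15 ± 0.07, adjusted p = 0.0675).

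All 3 immunoproteasome subunits rose, with a median log2 change of 0.62. Psmb8 (ENSMUSG00000024338, mm10 chromosome 17, 34197721 to 34201454, plus strand), the counterpart of Psmb5, was 9.56, 11.6 and 15.5 RPKM in O(-Ex), against 6.42, 6.69 and 8.08 RPKM in Y(-Ex) libraries. The groups did not overlap, and the change of 1.63-fold (0.71 ± 0.11, adjusted p = 4.12e-05) was the largest of the 47 members. Psmb9 (ENSMUSG00000096727, mm10 chromosome 17, 34181987 to 34187764, minus strand) was 2.51, 2.75 and 3.42 RPKM in O(-Ex), against 1.62, 1.74 and 2.74 RPKM in Y(-Ex) libraries. Only Y(-Ex) replicate 5, at 2.74 RPKM, reached the O(-Ex) range, and the change was 0.62 ± 0.14, adjusted p = 0.0014. Psmb10 rose by 0.31 ± 0.09, adjusted p = 0.0106, with overlap.

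**Figure D2:**
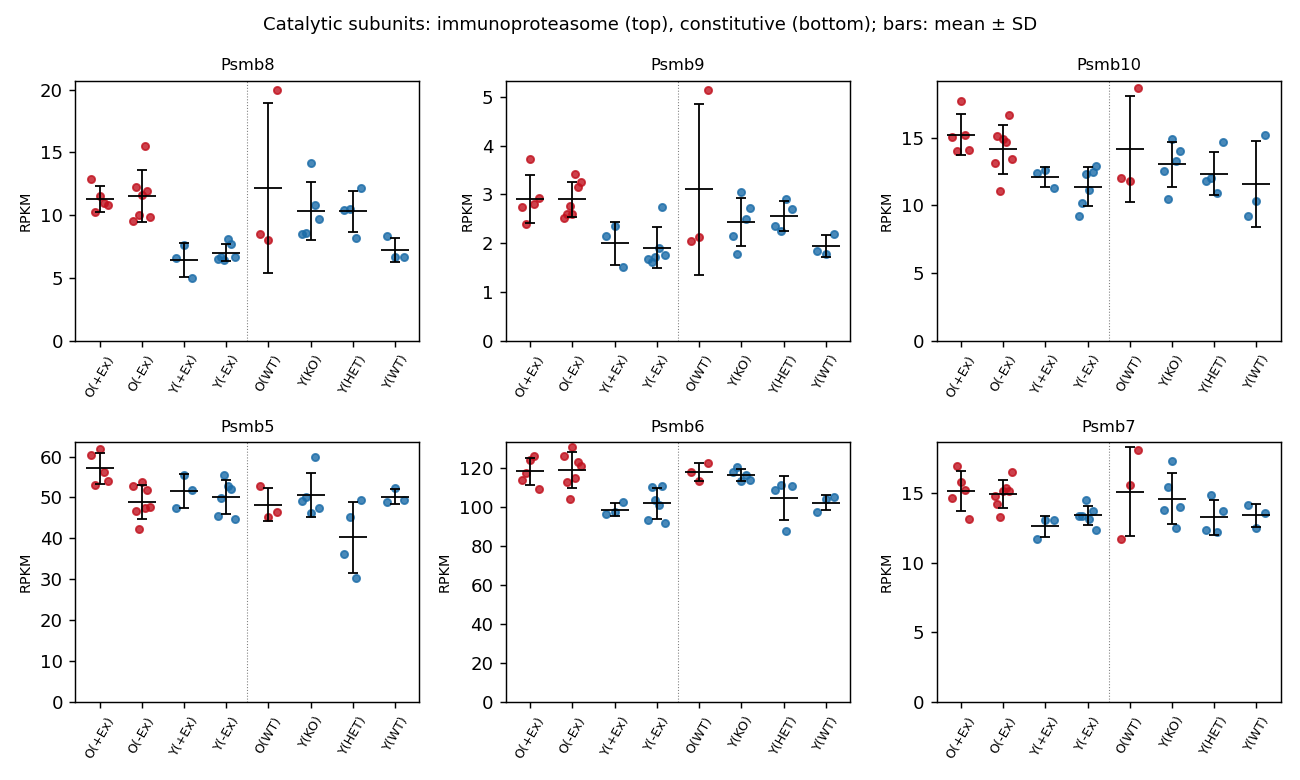
RPKM in every library (points, old in red and young in blue) of the immunoproteasome subunits (top) and of the constitutive cutting subunits (bottom), with the mean and SD as bars and a dotted line between the wheel and Ccnd1 cohorts. Psmb8 in O(-Ex) lies above all Y(-Ex) libraries, Psmb5 overlaps, and 1 of 3 O(WT) libraries stands apart for Psmb8 at 19.9 RPKM and for Psmb9 at 5.13 RPKM.

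Because Psmb8 and Psmb5 occupy the same place in the core, their ratio was formed within each library. It was 0.181, 0.263, 0.237, 0.216, 0.326, 0.231 and 0.207 in the 7 O(-Ex) libraries, against 0.143, 0.134, 0.116, 0.153, 0.147 and 0.149 in the 6 Y(-Ex) libraries. All O(-Ex) values lay above all Y(-Ex) values, and the ratio was 1.67-fold higher, or 0.74 on the log2 scale (two-sided exact permutation test, p = 0.00117, adjusted p = 0.0245 over 21 ratio tests, smallest possible p 0.000583). The adjusted p remained between 0.0265 and 0.0455 when each library was left out. The Psmb9 to Psmb6 ratio was 1.32-fold higher in O(-Ex) than in Y(-Ex) (exact permutation p = 0.0146, adjusted p = 0.153). Without Y(-Ex) replicate 5 it reached an adjusted p of 0.0265. The Psmb10 to Psmb7 ratio was 1.12-fold higher (exact permutation p = 0.152, adjusted p = 0.386).

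**Figure D3:**
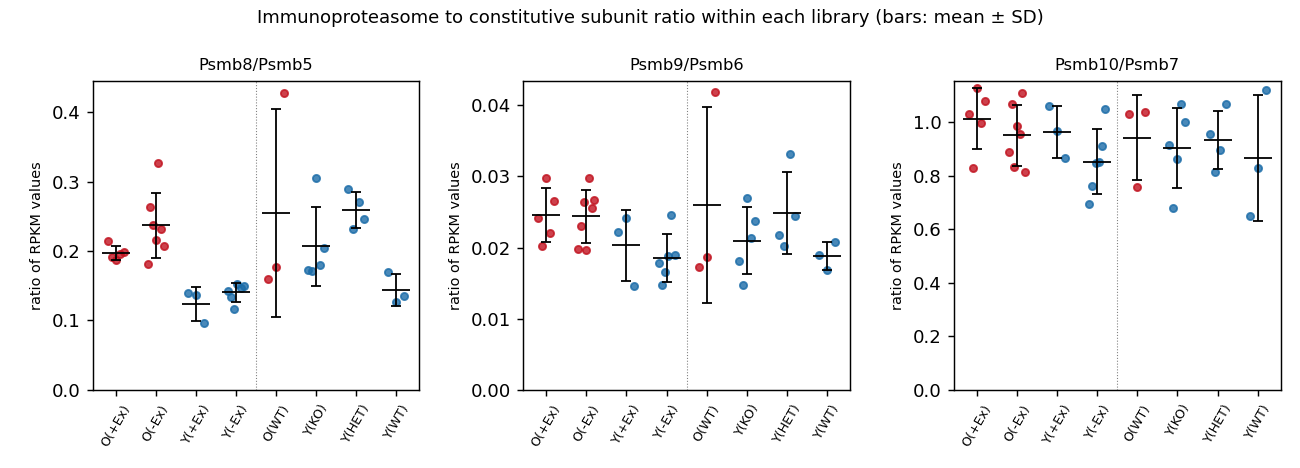
Ratio of each immunoproteasome subunit to its constitutive counterpart (RPKM over RPKM, points are libraries, old in red and young in blue, bars the mean and SD) by group, with a dotted line between cohorts. For Psmb8 over Psmb5 the O(-Ex) libraries start at 0.181 and the Y(-Ex) libraries end at 0.153.

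Genes that work with the immunoproteasome were followed in a list of 20 genes of MHC class I antigen processing and interferon signalling. Of these, 10 rose and 1 fell in O(-Ex) relative to Y(-Ex), or 50% and 5.0%, beside 20.5% and 17.8% of all genes. B2m, the light chain of MHC class I, rose by 0.67 ± 0.07, adjusted p = 4.16e-07, and Irf7, an interferon-induced transcription factor, by 0.94 ± 0.12, adjusted p = 4.44e-06. H2-Q4, a non-classical class I gene, fell by 0.40 on the log2 scale (adjusted p = 0.000501). The summed level of the list was 2682 to 3352 RPKM in O(-Ex) and 2016 to 2386 RPKM in Y(-Ex) libraries. Blood cells also carry immunoproteasomes. The 14 haematopoietic markers of 17 listed that the table holds summed to 67.7 to 120 RPKM in O(-Ex) and 57.0 to 128 RPKM in Y(-Ex) libraries, and 1 of 14 was called higher. The 8 myofibre markers of 10 listed summed to 53.9 to 186 RPKM in O(-Ex) and 131 to 682 RPKM in Y(-Ex) libraries, with 3 called lower. The 9 fibro-adipogenic markers of 10 listed summed to 797 to 1386 RPKM in O(-Ex) and 912 to 1179 RPKM in Y(-Ex) libraries, with 4 called higher and 1 lower. The 7 keratinocyte markers summed to 5.92 to 11.7 RPKM in O(-Ex) and 5.02 to 7.63 RPKM in Y(-Ex) libraries, with 2 called higher, and those of Schwann cells and endothelium gave 2 higher and 1 lower each. Of the 14 MuSC markers 6 were called lower, Pax7 among them, or 42.9% where 17.8% of genes were, and 1 higher, with sums of 2633 to 3525 RPKM in O(-Ex) and 2643 to 3320 RPKM in Y(-Ex) libraries. The part of any of these lists in the change of the proteasome genes was not tested.

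Among the 6 ATPases of the cap 3 rose. Psmc5 (Rpt6; ENSMUSG00000020708, mm10 chromosome 11, 106256154 to 106263120, plus strand) was 96.6, 112 and 117 RPKM in O(-Ex), against 73.8, 82.6 and 87.2 RPKM in Y(-Ex) libraries. The groups did not overlap and the log2 change was 0.42 ± 0.06, adjusted p = 5.69e-06. Psmc2 (Rpt1) rose by 0.39 ± 0.06, also without overlap, and Psmc4 (Rpt3) by 0.28 ± 0.07. Psmc6, the most abundant member, gave -0.02 ± 0.06, adjusted p = 0.829. The non-ATPase subunits had a median change of 0.12, and Psmd7 (Rpn8, the partner of the deubiquitinase Psmd14) was the 1 that rose, at 0.28 ± 0.07, adjusted p = 0.00316. Its level was 87.5, 95 and 103 RPKM in O(-Ex), against 68, 75.3 and 97.5 RPKM in Y(-Ex) libraries, where replicate 4 set the overlap.

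Assembly factors gave 3 increases of 7. Psmg4, a chaperone of alpha ring assembly, was 20.4, 23.5 and 27 RPKM in O(-Ex), against 14.5, 17.7 and 19.6 RPKM in Y(-Ex) libraries. No values overlapped, and the log2 change was 0.48 ± 0.09, adjusted p = 0.00035. Its partner Psmg3 rose by 0.29 ± 0.09 and Psmd9, a chaperone of the ATPase base, by 0.30 ± 0.09. The activators split. Psme4 (PA200, ENSMUSG00000040850, mm10 chromosome 11, 30771726 to 30880361, plus strand), a nuclear activator that caps the core without ubiquitin or ATP, was the 1 member that fell. It was 7.67, 9.29 and 10.6 RPKM in O(-Ex), against 10.1, 12 and 13.8 RPKM in Y(-Ex) libraries, and the log2 change was -0.36 ± 0.08, adjusted p = 0.00179. Psme3 (PA28gamma), the other nuclear activator, was called higher at 0.25 ± 0.10, adjusted p = 0.0436, but in 11 of 13 fits with 1 library left out it was not (adjusted p 0.00177 to 0.118; it was kept without O(-Ex) replicate 3 and without Y(-Ex) replicate 4). The interferon-inducible activators Psme1 (0.19 ± 0.08, adjusted p = 0.0614) and Psme2 (0.11 ± 0.08, adjusted p = 0.318) and the inhibitor Psmf1 (0.17 ± 0.10, adjusted p = 0.184) did not pass the test. The other 19 calls were kept in all 13 of these fits.

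Proteasome partners outside the name pattern were read from a list of 19 genes, 16 of them in the table, of which 6 rose and 1 fell with age, or 37.5% and 6.25%, where 20.5% and 17.8% of all genes did. Adrm1 (Rpn13), a ubiquitin receptor of the cap, rose by 0.39 ± 0.07 and Sem1 (Rpn15), a small lid subunit, by 0.33 ± 0.07. Another of the 6, Txnl4a (0.26 ± 0.06), is a protein of the splicing machinery. Nfe2l1, the transcription factor that activates proteasome genes when degradation falls short, fell by 0.19 on the log2 scale (SE 0.06, adjusted p = 0.0196). In a list of ubiquitin genes, shuttle receptors and the p97 unfoldase, 6 of 19 measured genes rose and 4 fell, or 31.6% and 21.1%, shares not far from those of all genes. Sqstm1 (p62), a receptor of selective autophagy, rose by 0.52 ± 0.07, whereas Nbr1, another such receptor, fell by 0.64 on the log2 scale (SE 0.07). Nploc4, a p97 cofactor, rose by 0.40 ± 0.08, and Uba1, the main ubiquitin-activating enzyme, fell by 0.32 (SE 0.08).

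In the Ccnd1 cohort the same question rested on 3 O(WT) and 3 Y(WT) libraries, whose adjusted values are tied to those of the wheel cohort. Here 7 of 47 members rose in O(WT), or 14.9%, and 0 fell, where 8.03% of all genes were called higher and 7.76% lower by limma. At an unadjusted p under 0.05, 18 members were higher and 1 lower, against 31.8% of genes in either direction. The 7 were Psma7 at 0.43 ± 0.08, Psmc5 at 0.42 ± 0.10, Psmd7 at 0.38 ± 0.10, Psme3 at 0.37 ± 0.10, Psmc2 at 0.36 ± 0.09, Psmb2 at 0.35 ± 0.11 and Psma5 at 0.34 ± 0.10 on the log2 scale. Psma7 was 45.4, 43.2 and 49.1 RPKM in O(WT), against 34.4, 33.1 and 34.6 RPKM in Y(WT) libraries, and its call was the 1 kept whichever of the 6 libraries was left out (adjusted p 0.0091 to 0.0267). Without Y(WT) replicate 1, 2 or 3 the count was 4, 4 or 1, and without O(WT) replicate 2 or 3 it was 4 or 3. Psmb8 was 8.47, 8.02 and 19.9 RPKM in O(WT), against 8.33, 6.66 and 6.65 RPKM in Y(WT) libraries. O(WT) replicate 3 was far above the other 5 libraries, and Psmb8 (0.62 ± 0.29, adjusted p = 0.151), Psmb9 (0.55 ± 0.28, adjusted p = 0.202) and Psmb10 (0.29 ± 0.20, adjusted p = 0.336) did not pass the test. The Psmb8 to Psmb5 ratio was 0.16, 0.177 and 0.428 in O(WT), against 0.17, 0.127 and 0.135 in Y(WT) libraries, with overlap. It was 1.61-fold higher in O(WT) (two-sided exact permutation p = 0.2, adjusted p = 0.386, smallest possible p 0.1), or 0.684 on the log2 scale and 0.235 without O(WT) replicate 3. In that library the antigen processing list summed to 4064 RPKM, against 2524 and 2531 RPKM in the other O(WT) libraries. Psme4 was 9.68, 8.53 and 9.07 RPKM in O(WT), against 14.2, 10.7 and 12.4 RPKM in Y(WT) libraries, a change that was not called (-0.44 ± 0.16, adjusted p = 0.0679).

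**Figure D4:**
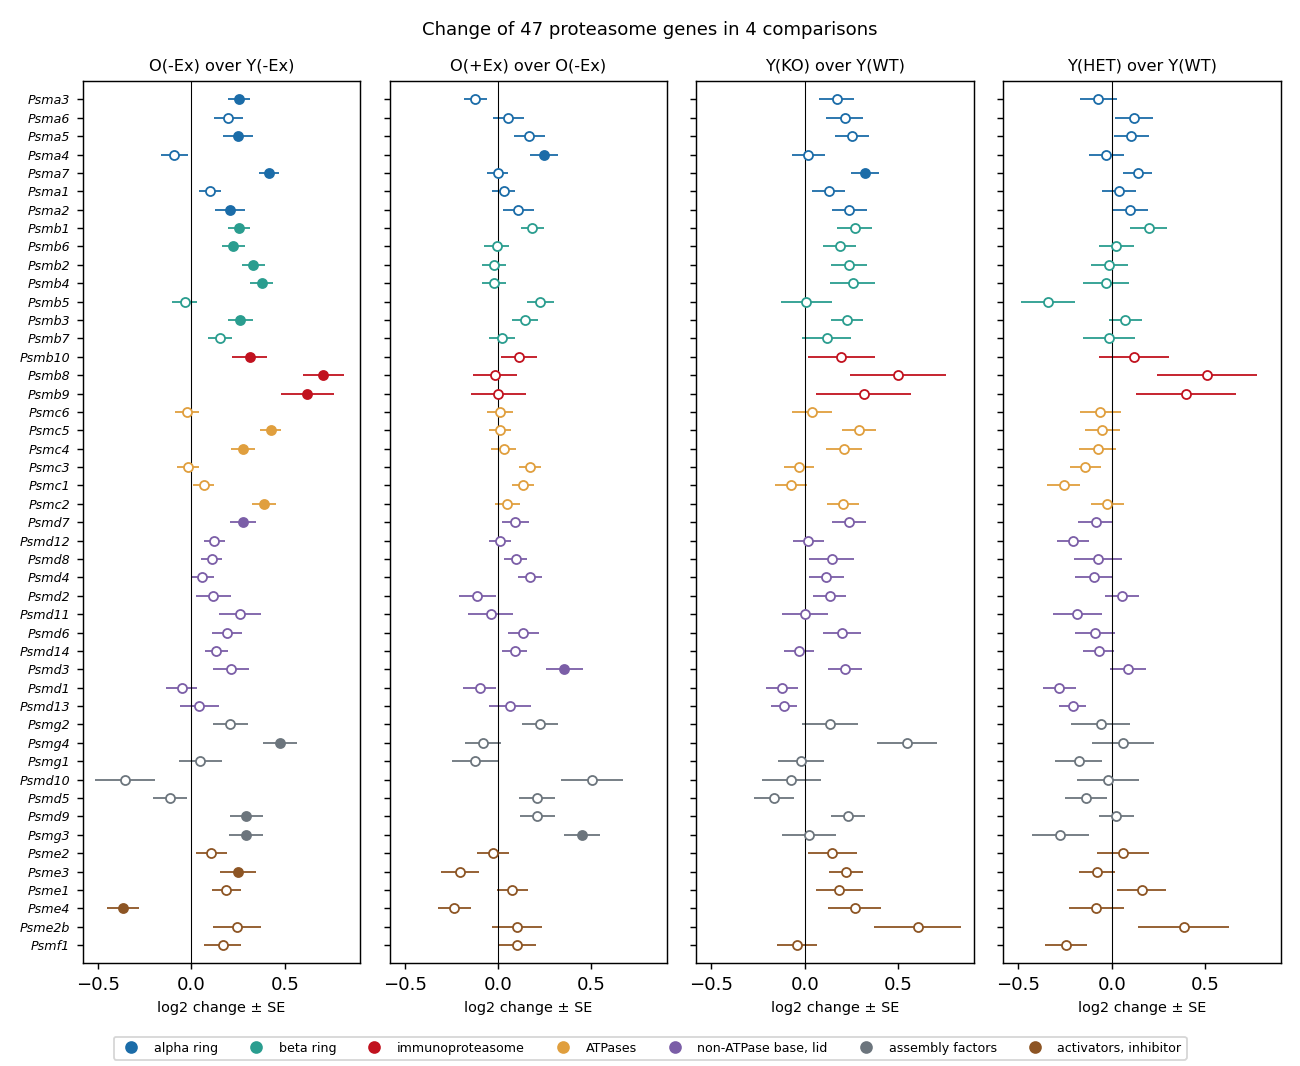
Log2 change of each of the 47 members with its SE for age in the wheel cohort, running in old mice, Ccnd1 loss and loss of 1 Ccnd1 allele in young mice, by role (colours), with filled points for members past an adjusted p of 0.05. The age panel holds 21 filled points, the running panel 3, the KO panel 1 and the HET panel 0.

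The second question was voluntary running. In old mice 3 of 47 members rose in O(+Ex) relative to O(-Ex), or 6.38%, and 0 fell, where 4.09% of all genes were called higher and 3.3% lower by limma, so the share of members was near that of all genes. At an unadjusted p under 0.05, 12 members were higher and 1 lower, against 23.3% of genes in either direction. Psmg3 (ENSMUSG00000029551, mm10 chromosome 5, 139823592 to 139826885, minus strand) changed most clearly. It was 3.81, 3.65, 4.03, 3.78 and 3.84 RPKM in O(+Ex), against 2.61, 2.82 and 2.94 RPKM in O(-Ex) libraries (lowest, median and highest of 7). The groups did not overlap, the log2 change was 0.45 ± 0.10, adjusted p = 0.00866, and the call held in all 12 fits with 1 library left out. Psmd3 (Rpn3) was 34.2, 38.3, 34.8, 28.8 and 32.3 RPKM in O(+Ex), against 21, 26.8 and 32.1 RPKM in O(-Ex) libraries, with overlap (0.36 ± 0.10, adjusted p = 0.0333). Psma4 was 48.9, 53.7, 57.9, 51.9 and 47.8 RPKM in O(+Ex), against 37.4, 46.2 and 46.9 RPKM in O(-Ex) libraries, without overlap (0.25 ± 0.08, adjusted p = 0.0474).

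Psmd3 and Psma4 were at the edge of the threshold. Psmd3 lost its call in 7 of 12 fits, those without O(-Ex) replicate 1, 2 or 4 or O(+Ex) replicate 1, 2, 3 or 5, and Psma4 in 8, those without O(-Ex) replicate 2, 3, 4 or 5 or O(+Ex) replicate 1, 2, 3 or 4 (adjusted p up to 0.0951 and 0.144). Without O(-Ex) replicate 6 the count of increases was 5, with Psmb5 and Psmg2 added, without O(-Ex) replicate 2 or 4 or O(+Ex) replicate 1, 2 or 3 it was 1, and without O(-Ex) replicate 1 the activator Psme4 was called lower. The cutting subunit Psmb5 was just short of the threshold, with 60.3, 53.2, 61.9, 56.2 and 54.1 RPKM in O(+Ex), against 42.3, 47.6 and 53.7 RPKM in O(-Ex) libraries (0.23 ± 0.07, adjusted p = 0.0551). Psmb6 (-0.01 ± 0.07), Psmb7 (0.02 ± 0.07), Psmb8 (-0.02 ± 0.12), Psmb9 (0.00 ± 0.15) and Psmb10 (0.11 ± 0.10) were not called. The Psmb8 to Psmb5 ratio was 0.845 times as high in O(+Ex) as in O(-Ex) (exact permutation p = 0.0707, adjusted p = 0.361). The activators were not called either, with Psme4 at -0.23 ± 0.09, adjusted p = 0.108 and Psme3 at -0.20 ± 0.10, adjusted p = 0.23. The endothelial markers, 10 of 10 in the table, summed to 195 to 266 RPKM in O(+Ex) and 136 to 196 RPKM in O(-Ex) libraries, with 3 called higher, and their part in these values was not tested. In the antigen processing list 2 of 20 genes rose and 1 fell, in the ubiquitin list 0 of 19 rose and 1 fell, and of 16 proteasome partners none was called. Ifngr1 (0.48 ± 0.09) and Erap1 (0.37 ± 0.09) rose and Jak2 fell by 0.36 on the log2 scale, and Rad23b, a shuttle receptor of the ubiquitin list, fell by 0.25.

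In young mice 0 of 47 members were called in Y(+Ex) relative to Y(-Ex) by limma, where 0.406% of all genes were called higher and 0.714% lower. At an unadjusted p under 0.05 there were 2 higher and 5 lower members, 7 in all, against 15.8% of all genes. The lowest p belonged to Psme4, with 9.19, 9.62 and 9.31 RPKM in Y(+Ex), against 10.1, 12 and 13.8 RPKM in Y(-Ex) libraries (-0.35 ± 0.11, adjusted p = 0.1). All Y(+Ex) libraries lay below all Y(-Ex) libraries, and without Y(-Ex) replicate 1 the activator subunit Psme2 was called lower. Next were Psma3 (-0.21 ± 0.07, adjusted p = 0.158) and Psmd5, a chaperone of the ATPase base (0.31 ± 0.12, adjusted p = 0.181). Of the cutting subunits, Psmb8 gave -0.15 ± 0.14 and Psmb5 0.04 ± 0.09. The test of whether running acted differently in old and in young mice called 0 members, where 0.00882% of all genes were called higher and 0% lower, and 3 members had an unadjusted p under 0.05, against 8.47% of genes. Psmg3 had the lowest p, with a running effect larger by 0.49 ± 0.15, adjusted p = 0.429 in old than in young mice, followed by Psmb3 (0.27 ± 0.11, adjusted p = 0.551) and Psmd3 (0.35 ± 0.16, adjusted p = 0.56).

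**Figure D5:**
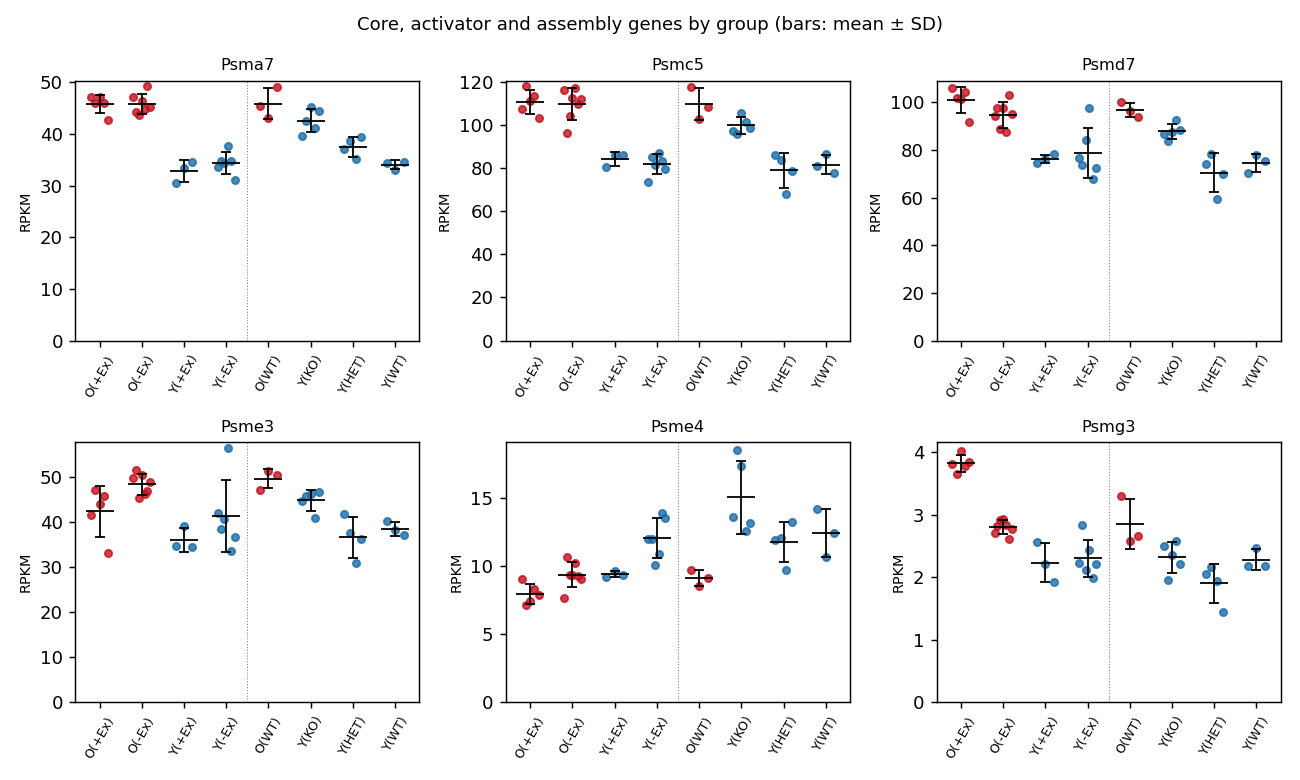
RPKM in every library (points, old in red and young in blue) of the members called in at least 3 comparisons (Psma7, Psmc5, Psmd7 and Psme3), of Psme4, which fell with age, and of Psmg3, which rose with running in old mice, with the mean and SD as bars and a dotted line between cohorts. Psma7 in O(-Ex) starts at 43.6 RPKM and in Y(-Ex) ends at 37.6 RPKM, and Psmg3 in O(+Ex) starts at 3.65 RPKM and in O(-Ex) ends at 2.94 RPKM.

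The third question was the loss of cyclin D1 in young MuSCs. In Y(KO) relative to Y(WT) 1 of 47 members, or 2.13%, rose and 0 fell, where 5.05% of all genes were called higher and 1.94% lower by limma. The median log2 change of the members was 0.18, against 0.03 over all genes, and 38 of 47 lay above 0, or 80.9%, against 53.7% of all genes. At an unadjusted p under 0.05, 17 members were higher and 0 lower, against 25.7% of genes in either direction, and for 18 members, or 38.3%, all Y(KO) libraries lay above all Y(WT) libraries, which held for 11.2% of genes. The member that rose was Psma7, with 39.7, 42.4, 45.3, 41.1 and 44.4 RPKM in Y(KO), against 34.4, 33.1 and 34.6 RPKM in Y(WT) libraries (0.32 ± 0.07, adjusted p = 0.0235). The groups did not overlap, yet the call was lost without Y(KO) replicate 3 or 5 or Y(WT) replicate 2 or 3 (adjusted p up to 0.0991), and without Y(KO) replicate 2 the count was 2, Psma7 and Psmg4. Psmg4 (0.55 ± 0.16, adjusted p = 0.0508) and Psmc5 (0.29 ± 0.09, adjusted p = 0.0629) came next and were not called. Psmb8 was 8.52, 8.57, 14.1, 10.8 and 9.69 RPKM in Y(KO), against 8.33, 6.66 and 6.65 RPKM in Y(WT) libraries, all above and not called (0.50 ± 0.26, adjusted p = 0.238), and Psmb5 gave 0.01 ± 0.14. Outside the members, 1 of 16 proteasome partners, 1 of 19 ubiquitin genes and 1 of 20 antigen processing genes rose and none fell, shares of 6.25%, 5.26% and 5.0% that are near the 5.05% of all genes. The antigen processing list summed to 2416 to 3744 RPKM in Y(KO), highest in replicate 3, and to 2140 to 2239 RPKM in Y(WT) libraries. The part of that list in the values of the members was not tested. Sem1 rose by 0.53 ± 0.13, Nploc4 by 0.35 ± 0.10 and Irf1, an interferon response factor, by 0.84 ± 0.24.

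With 1 floxed allele, Y(HET) libraries gave 0 called members relative to Y(WT) by limma, where 1.98% of all genes were called higher and 3.4% lower. At an unadjusted p under 0.05 there were 0 higher and 6 lower members, against 23.1% of genes in either direction. For 7 members, or 14.9%, all Y(HET) libraries lay below all Y(WT) libraries, as for 14.3% of genes. The lowest p values belonged to Psmd1, the largest subunit of the cap (-0.28 ± 0.09, adjusted p = 0.0758), the ATPase Psmc1 (-0.26 ± 0.09, adjusted p = 0.103) and the lid subunit Psmd13 (-0.21 ± 0.07, adjusted p = 0.105). Psmd1 was 18.8, 17.3, 16.2 and 20.0 RPKM in Y(HET), against 20.7, 23.3 and 21.7 RPKM in Y(WT) libraries. Psmb5 was 36.1, 45.3, 30.4 and 49.5 RPKM in Y(HET), against 48.9, 52.3 and 49.3 RPKM in Y(WT) libraries, and Psmb8 was 10.4, 10.4, 8.2 and 12.2 RPKM in Y(HET), against 8.33, 6.66 and 6.65 RPKM in Y(WT) libraries. Neither was called, and their ratio was 1.80-fold higher in Y(HET), with 0.289, 0.231, 0.27 and 0.246 in Y(HET), against 0.17, 0.127 and 0.135 in Y(WT) libraries. The groups did not overlap, the exact permutation p of 0.0286 is the smallest that 4 against 3 libraries allow, and the adjusted p was 0.2. In Y(KO) the same ratio was 1.41-fold higher than in Y(WT) (exact permutation p = 0.0893, adjusted p = 0.361). The keratinocyte markers, among them Krt14 at 31.9 to 95.8 RPKM, are high in the same Y(HET) libraries. Within Y(HET), replicates 1, 3 and 2 had the same order, from highest to lowest, by the sum of these markers and by the ratio. Replicate 4 departed from this order, and with only 4 libraries the relation of the sum to the ratio was not tested. The sum was highest, at 192.1 RPKM, in replicate 4, where the ratio was 0.246, below the 0.289 of replicate 1. Replicate 2 had both the lowest sum, 74.34 RPKM, and the lowest ratio, 0.231. In Y(KO) the sum was 3.015 to 6.578 RPKM. The fibro-adipogenic markers summed to 589.8 to 688.0 RPKM in Y(HET) and 802.2 to 1433 RPKM in Y(WT) libraries, with 1 called lower. The antigen processing list summed to 2320 to 3330 RPKM in Y(HET) and 2140 to 2239 RPKM in Y(WT) libraries, with 0 of 20 genes called. The part of any of these lists in the values was not tested.

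Set against Y(HET), 3 of 47 members rose in Y(KO), or 6.38%, and 0 fell. Of all genes, 5.15% were called higher and 0.891% lower by limma, so the share of members was near that of all genes. At an unadjusted p under 0.05, 18 members were higher and 0 lower, against 22.7% of genes in either direction. The log2 change was above 0 for 91.5% of members and for 64.7% of all genes. Psmc5 was 97.1, 95.9, 106, 102 and 98.9 RPKM in Y(KO), against 86, 84, 67.9 and 78.7 RPKM in Y(HET) libraries (0.34 ± 0.08, adjusted p = 0.0265). Psmd7 was 86.9, 83.8, 87.6, 92.5 and 88.3 RPKM in Y(KO), against 74, 78.4, 59.6 and 70.2 RPKM in Y(HET) libraries (0.32 ± 0.08, adjusted p = 0.0322). Psme3 was 44.6, 45.8, 46.2, 40.8 and 46.7 RPKM in Y(KO), against 41.9, 37.6, 30.9 and 36.2 RPKM in Y(HET) libraries (0.30 ± 0.08, adjusted p = 0.0495). Groups did not overlap for Psmc5 and Psmd7, and Y(HET) replicate 3 was the lowest library for all 3. None of the 3 calls was left without Y(HET) replicate 3 or 4, without Y(KO) replicate 3 or after scaling by median of ratios. Without Y(KO) replicate 4 only Psme3 was called and without Y(KO) replicate 5 only Psmc5, whereas without Y(HET) replicate 4 the 1 called member was Psmg4. Without Y(HET) replicate 2 the 4 called members were Psmc5, Psmd7, Psmc4 and Psmd6. The median log2 change was 0.16 over the members and 0.08 over all genes. The summed level of the members was 2251 ± 73 RPKM in Y(KO), 1988 ± 161 RPKM in Y(HET) and 2019 ± 31.1 RPKM in Y(WT) libraries (SD, n = 5, 4 and 3). The comparisons of Y(KO) and O(WT) share the Y(WT) libraries, and Psma7, called in both, was 45.9 ± 2.99 RPKM in O(WT), 42.6 ± 2.3 RPKM in Y(KO), 37.5 ± 1.92 RPKM in Y(HET) and 34 ± 0.848 RPKM in Y(WT) libraries (SD, n = 3, 5, 4 and 3).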

How the data were processed

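RNA sequencing libraries of sorted muscle stem cells from 36 mice were analysed from 1 table of 11337 genes. Per the labels' protocols, 10 ng of RNA was reverse transcribed with oligo(dT) primers, amplified for 13 to 15 cycles and sequenced as 101 bp pairs to a stated depth of 20 to 40 M reads. Per the submitters' processing notes, Trim Galore, STAR, featureCounts of Subread and the build mm10 were used, and their versions and the strand setting are not stated in these sources. The authors deposited RPKM values without zeros, with a lowest value of 0.00144, and a score for each gene, its correlation with Ccnd1. Multiplied by exon kb, the values of a library add up to 958293 to 1204774. How they were adjusted across libraries is not stated in these sources, counts and depth cannot be had from them, and no counting intervals are given.

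Log2 RPKM without a pseudocount was fitted with limma 3.58.1 (R 4.3.3, statmod 1.5.0), with 1 mean per group, in the 21 libraries of the wheel cohort and the 15 of the Ccnd1 cohort. Variances were moderated by eBayes (trend and robust), Benjamini-Hochberg adjustment covered all 11337 genes, and called means an adjusted p under 0.05. Fold changes given as a log2 change ± SE come from this fit. The fit was tested on simulated data with 200 changed genes. Ratios of 3 subunit pairs in 7 comparisons were tested by two-sided exact permutation, adjusted over 21 tests. Each library is 1 mouse, and p-values rest on the spread between mice that was left in the adjusted values. Positions came from GENCODE M21 (11335 of 11337 identifiers matched), and promoters from RefSeq. Tables were made with Python 3.11.15, pandas 2.3.3 and numpy 2.4.6 and figures with matplotlib 3.10.9.

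The members and gene lists were chosen with earlier results of these data known. Named were the cutting subunits and their counterparts, the activators and the inhibitor, up to 3 called members per role, direction and comparison by lowest p, the 3 lowest p where none was called, the highest and lowest mean per role, members called in at least 3 comparisons, and of the other lists up to 2 called genes per direction. Other genes were named after their values were seen. Alternatives were median-of-ratios scaling, log2(RPKM + 1), a mean of at least 5 RPKM, no trend or robust setting, the 2 groups alone, all 36 libraries in 1 fit, replicate number as a block, and leaving out each library. For the ratios they were RPKM + 1, alpha ring genes as the denominator and leaving out each library.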

Additional observations from a re-analysis of the deposited data

Results flagged for a closer look

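Each gene of the name pattern and each subunit ratio was checked in every group with 4 to 10 libraries. In 18 of 255 such combinations, or 7.06%, 1 library lay apart from the others by Dixon's criterion, where chance flags about 1 in 20, or 13 in all. Y(HET) replicate 3 was the lowest of its group for Psmb6 (87.7 RPKM, next 109 RPKM), Psmb2 (78.5 RPKM, next 100.4 RPKM), Psmb3 (29.9 RPKM) and Psmd11 (37.9 RPKM). Y(-Ex) replicate 4 was the highest for Psmd12 (75.0 RPKM), Psmd6 (54.6 RPKM), Psme3 (56.5 RPKM, next 41.9 RPKM) and Psme1 (39.4 RPKM) and the lowest for Psmd11 (29.1 RPKM), and its myofibre markers summed to 682 RPKM, the highest of all libraries. The part of those markers was not tested. Y(-Ex) replicate 5 was high for Psmb9 (2.74 RPKM) and low for Psmd5 (3.59 RPKM), and Y(-Ex) replicate 1 was high for Psmd14 (35.2 RPKM). In O(+Ex), replicate 5 was low for Psma7 (42.7 RPKM), replicate 2 low for Psmg1 (5.6 RPKM) and replicate 3 high for Psme1 (45.0 RPKM). O(-Ex) replicate 3 was low for Psmc6 (129 RPKM). In Y(KO), replicate 4 was high for Psmb5 (59.8 RPKM) and replicate 3 for the Psmb8 to Psmb5 ratio (0.305).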

How the results depend on the processing

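Of 35 calls of single members, the 627 alternatives left 521 called in the same direction, lost the call in 106 and turned none round. Counts moved most in the small Ccnd1 cohort. Members higher in Y(KO) than in Y(HET) numbered 3, but 0 after median-of-ratios scaling, 0 with the 2 groups alone and 9 with all 36 libraries in 1 fit. Members higher in Y(KO) than in Y(WT) numbered 1, but 2 among genes averaging 5 RPKM or more, 0 with the 2 groups alone and 4 with all 36 libraries in 1 fit. With all 36 libraries in 1 fit, 11 members were higher and 1 lower in O(WT) than in Y(WT), and 1 was lower in Y(HET) than in Y(WT). The cause was not tested. Deviations of same-numbered mice correlated at -0.259 to 0.302. The values had been adjusted across libraries, so this check cannot show whether replicate numbers pair mice. With the replicate number as a block 4 members were higher in O(WT) than in Y(WT), 0 in Y(KO) than in Y(WT) and 0 in Y(KO) than in Y(HET). When each library was left out in turn, the age comparison of the wheel cohort gave 18 to 26 higher members and 1 to 2 lower ones, 2 without Y(-Ex) replicate 5. The ranges were 1 to 7 higher for age in the Ccnd1 cohort, 1 to 5 higher and 0 to 1 lower for running in old mice, 0 to 1 lower for running in young mice, 0 to 2 higher for Y(KO) against Y(WT) and 0 to 4 higher for Y(KO) against Y(HET). The log2 difference of the Psmb9 to Psmb6 ratio by age ranged from 0.333 to 0.482. The unknown depth and the adjustment across libraries limit all of these values.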

Other observations

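The authors' deposited table gives each gene a score, its correlation with Ccnd1. Neither the libraries nor the formula behind it is stated, and no calculation tried here matched it (the closest, Pearson's coefficient on RPKM over 36 libraries, was off by up to 0.19). In the authors' deposited table the 47 members ran from -0.672 for Psme4 to 0.744 for Psmd5, with a median of 0.033, and 26 of 47 were above 0, while the median over all genes was 0.008. Psmd5, the member highest on this score, was 4.49, 4.63, 5.65, 3.92 and 4.39 RPKM in O(+Ex), against 3.65, 3.93 and 4.69 RPKM in O(-Ex) libraries (lowest, median and highest of 7), and the difference by running in old mice was not called (0.21 ± 0.10, adjusted p = 0.191, limma).

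Psmd10 (gankyrin), a chaperone of the ATPase base that also binds Cdk4, was chosen after its values were seen. It was 6.75, 7.71, 9.05, 8.63 and 7.4 RPKM in O(+Ex), against 4.25, 5.99 and 6.82 RPKM in O(-Ex) libraries (log2 change 0.50 ± 0.17, adjusted p = 0.067). In young mice it was 9.73, 9.92 and 10.5 RPKM in Y(+Ex), against 4.34, 6.9 and 10.6 RPKM in Y(-Ex) libraries (0.50 ± 0.20, adjusted p = 0.219). By age it gave -0.35 ± 0.16, adjusted p = 0.0823 in O(-Ex) relative to Y(-Ex). None of these passed the threshold in the main limma fit, and the groups overlapped in each. For running in old mice, Psmd10 was called higher with the 2 groups alone and with all 36 libraries in 1 fit. Without Y(-Ex) replicate 5 it was called lower by age. Psmc3ip, the gene that only shares the name pattern, was 1.67, 2.56 and 4.14 RPKM in O(-Ex), against 1.54, 1.82 and 2.32 RPKM in Y(-Ex) libraries (0.46 ± 0.18, adjusted p = 0.05 after rounding) and was called in no comparison.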
